A study of Mus musculus with 1920 samples.

Results

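Eph receptors and ephrins are cell-surface proteins through which neighboring cells sense each other, and the 10 genes of these families described here are the EphB receptors Ephb2, Ephb3 and Ephb4, the EphA receptors Epha1, Epha2 and Epha4, the ephrin-B ligands Efnb1 and Efnb2, and the ephrin-A ligands Efna1 and Efna4. They were chosen by name from the 55471 genes of the count table, with no threshold on a value, and all 10 passed the filter on low counts. The data are single intestinal stem cells (ISCs) of 3 young and 4 aged mice, sorted as Lgr5high by their green fluorescence. All mice carried the knock-in B6.129P2-Lgr5tm1(cre/ERT2)Cle/J, in which an Lgr5 allele drives the fluorescent protein and an inducible Cre recombinase, and age was given in the labels only as young or old. Each cell was processed by Smart-seq2, a plate method that amplifies full-length cDNA and has no molecular identifiers, and the 1836 cells in which 1000 genes or more had a read are used, 84 others being left out. The replicate is the mouse, so the counts of its cells were added up before any test.

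In Eph and ephrin signaling a receptor tyrosine kinase on a cell binds an ephrin on its neighbor, and signals run into both cells, often ending in repulsion or in a change of adhesion. A-type ephrins are held in the membrane by a lipid anchor and mostly bind EphA receptors, whereas B-type ephrins span the membrane and mostly bind EphB receptors. In the intestine EphB2 and EphB3 are known targets of Wnt and β-catenin signaling, are found on cells of the crypt, and position them against ephrin-B on cells that move toward the villus. EphB3 is also known for keeping Paneth cells, the antimicrobial neighbors of ISCs, at the crypt base.

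Kept cells held a median of 305492 reads on genes, and the sums per mouse ran from 49447464 to 134408884 reads, and since reads are not independent molecules, read totals speak for counting error alone. In 1574 cells a list of 14 ISC markers had the highest mean level among lists for 8 cell types. Lgr5, itself on that list, was read in 98.3% of them. The remaining kept cells were led by another list, mostly that of Paneth cells (125 cells), enterocytes (76) or goblet cells (43). They made up 5.95% to 13.1% of the cells of a young mouse and 10.6% to 25.7% of the cells of an aged mouse. Averaged over mice, 10 of 12 Paneth, 12 of 13 enterocyte and 10 of 10 goblet markers had higher levels in aged mice and 13 of 14 ISC markers lower ones. The summed level of each of these lists overlapped between the ages, and no difference of a list was tested. ISC markers summed to 18602.4 to 23299.7 CPM (counts scaled to library size) in young and 14804.8 to 24760.5 CPM in aged mice. No marker of any list was at 0 in all mice, and the summed levels of immune and stromal markers were at most 7.1 CPM.

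The 10 genes lie on 8 chromosomes of the GRCm38 build. Ephb3 is on chromosome 16 from 21204755 to 21223305, and Ephb2 (136647539 to 136835988) and Epha2 (141301240 to 141329384) are both on chromosome 4. The ligand genes Efna1 (89271733 to 89281142) and Efna4 (89333390 to 89338028) are near each other on chromosome 3, with another family gene, Efna3, between them. Exons of Ephb4, Epha1 and Efna4 overlap those of a gene on the opposite strand (Zan, Zyx and 4731419I09Rik), and reads of such pairs cannot be told apart where counting ignored strand.

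The 250 bases before the start sites are shown for Ephb3 and Efnb2, whose transcripts differed in opposite directions between enterocyte-led and ISC-led cells, with each CpG in capitals. They were read from RefSeq sequences of GRCm38.p6, in which all 10 genes were matched. The Ephb3 sequence is chr16:21204545-21204794 on the plus strand and the Efnb2 sequence is chr8:8661243-8661492 on the minus strand.
Ephb3: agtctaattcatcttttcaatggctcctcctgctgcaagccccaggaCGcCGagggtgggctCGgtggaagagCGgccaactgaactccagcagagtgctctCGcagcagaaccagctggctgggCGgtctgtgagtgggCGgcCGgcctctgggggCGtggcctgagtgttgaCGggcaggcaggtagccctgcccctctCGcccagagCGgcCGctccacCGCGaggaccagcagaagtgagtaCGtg
Efnb2: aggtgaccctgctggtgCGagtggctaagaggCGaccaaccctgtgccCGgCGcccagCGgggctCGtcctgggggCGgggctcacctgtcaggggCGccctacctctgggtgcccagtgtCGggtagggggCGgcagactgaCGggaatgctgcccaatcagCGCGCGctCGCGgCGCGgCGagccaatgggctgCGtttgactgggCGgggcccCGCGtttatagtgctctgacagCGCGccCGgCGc
Efnb2 had 27 CpG in these 250 bases and Ephb3 had 16, against a median of 6 over 32851 promoters of the same length. All 11 start sites of the 10 genes (Efna1 has 2 in the table) had more than that median, from 7 in Efna4 to 27 in Efnb2, as did 46.3% of all promoters. Because EphB genes are known Wnt targets, the windows were also searched on both strands for CTTTG followed by AA, AT, TA or TT, letters that TCF and LEF factors are known to bind. A match stood in 14.8% of all promoters, and among the 10 genes in 2, Epha2 at chr4:141301001-141301030 and Efna4 at chr3:89338187-89338216, printed here as 30 bases with the match in capitals.
Epha2: ccctggtggcgCTTTGAAatgagaaatctc
Efna4: cacagtgagatAACAAAGggacgctttggc
The match begins 209 bases before the Epha2 start and 177 bases before the Efna4 start, where it is the reverse complement. None of these letters stood in the windows of Ephb2 and Ephb3.

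All 4 subgroups of the family were expressed in sorted ISCs, and the ligand Efna1 was the most abundant per length of transcript. Counts per mouse were scaled to CPM with TMM, a scaling that corrects for a few very abundant genes, and levels of different genes were compared only as CPM per kilobase of annotated exon, which counts exons of rare isoforms too. Efna1 reached 90.9 ± 17.4 CPM per kilobase (SD, n = 7 mice), ahead of Efna4 at 25.4 ± 3.47. The next were Ephb4 at 16.6 ± 2.56 and Efnb1 at 15.6 ± 2.76, which stood in this order in 5 of 7 mice, so they did not differ beyond their spread. Ephb3 at 7.54 ± 1.65 was above Ephb2 at 5.91 ± 0.50 in 6 of 7 mice. This order depends on the annotated exon length, 6.64 kilobases for Ephb3 and 12.6 for Ephb2. Before division by length the mean over the 7 mice was higher for Ephb2 (74.5 CPM) than for Ephb3 (50.1 CPM). Epha1 at 5.64 ± 0.67 was below Ephb2 in 4 of 7 mice, and Epha4 (3.60 ± 1.41) and Epha2 (3.50 ± 1.50) were likewise in this order in 4 of 7. Efnb2 was the lowest at 0.68 ± 0.15 in all 7 mice.

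Most sorted cells carried several of these transcripts at the same time. In cells thinned to 100000 reads (1732 cells, with 104 too shallow), the median number of the 10 genes with a read was 7 in 6 mice and 6 in aged mouse 1. Reads of both Ephb2 and Ephb3 were found in 68.5%, 75.9% and 71.8% of cells in young mice 1, 2 and 3, and in 64.5%, 69.3%, 63.1% and 68.0% in aged mice 1, 2, 3 and 4. Cells with neither made up 2.27% to 7.53% of the cells of a mouse. A read of Efnb2 was found in 14.0% to 22.9% of cells and a read of Efna1 in 90.4% to 97.3%. These shares depend on depth and on the capture of RNA, so a cell without a read is not a cell shown to lack the transcript.

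Of the other 12 genes of the families, 6 passed the filter on low counts. Efna3, an A-type ligand, had 14.0 CPM on average over the mice, and Epha7 had 6.11. Epha3, Epha10, Efna2 and Efnb3 passed with at most 1.97 CPM in any mouse. Epha5, Epha6, Epha8, Ephb1, Ephb6 and Efna5 did not pass, and Ephb1 had no read in any kept cell.

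**Figure D1:**
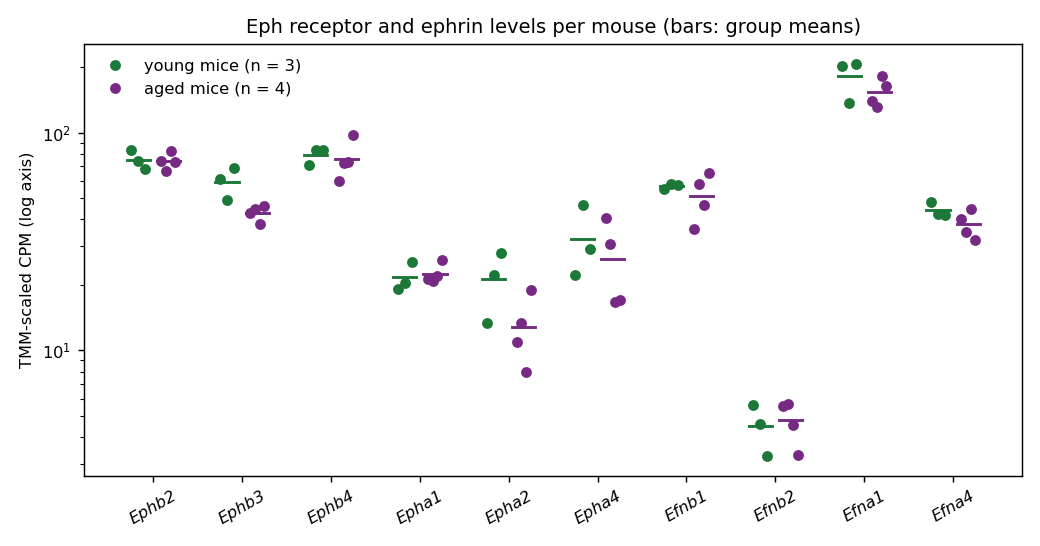
Level of each Eph receptor and ephrin in each mouse as TMM-scaled CPM on a log axis, with points for 3 young (green) and 4 aged (purple) mice and bars for group means. Ephb3 is the only gene of the 10 whose aged mice (38.2 to 46.1 CPM) all lie below its young mice (48.8 to 69.1 CPM).

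The comparison of aged with young mice asked whether ISCs change their contact receptors and ligands with age. No gene of the 10 passed the test, and 8 of them had a log2 fold change (aged minus young) below 0, with a median of -0.18 over the 10 genes and of 0.01 over all genes tested. In edgeR, 0% of 20957 genes passed a Benjamini-Hochberg adjusted p of 0.05, and 5.24% had an unadjusted p under 0.05, among them Ephb3. DESeq2 called 0.845% of genes and none of the 10.

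Ephb3, the Wnt target receptor shared by ISCs and Paneth cells, had 61.0, 48.8 and 69.1 CPM in young mice 1, 2 and 3 and 42.9, 44.4, 38.2 and 46.1 CPM in aged mice 1, 2, 3 and 4. Every aged mouse was below every young mouse, the only such gene of the 10, and 3.1% of all genes tested showed the same. The log2 fold change was -0.47 (SE 0.16, 95% interval -0.84 to -0.11, adjusted p = 0.808 in edgeR). Ephb2, the other EphB receptor with this role, had 83.4, 73.7 and 68.1 CPM in young mice and 74.3, 66.8, 81.9 and 73.1 CPM in aged mice. The groups overlapped fully and the log2 fold change was -0.02 with an interval of -0.35 to 0.31. Whether Ephb2 and Ephb3 differ in their change with age was not tested. Ephb4, a receptor best known from blood vessels and a partner of ephrin-B2, had 70.8 to 83.2 CPM in young and 59.8 to 97.1 CPM in aged mice.

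Since counts were summed over cells, fewer cells with the transcript and fewer reads in each cell cannot be told apart in these levels. The share of thinned cells with a read of Ephb3 was 78.7% ± 4.24 (SD, n = 3) in young and 73.6% ± 3.45 (SD, n = 4) in aged mice, and these shares overlapped. In none of the 10 genes did the aged mice all have lower shares than the young mice, against 1.78% of the genes found in at least 10% of cells. In ISC-led cells alone the log2 fold change of Ephb3 was -0.46 (SE 0.17), close to that over all kept cells. Cells that shared a code in their titles were taken as a sequencing lane. Such lanes that held both ages gave differences in log2 CPM of -0.21, -0.67 and -0.13 for Ephb3, and -0.01, -0.03 and -0.14 for Ephb2. Young mouse 2 was the young mouse in the first and last of these lanes, so their differences are not independent. Without young mouse 3 the log2 fold change of Ephb3 was -0.35, and its interval of -0.77 to 0.06 included 0. Leaving out any other mouse kept the interval below 0. With lane as a block the change was -0.34, with an interval of -0.71 to 0.04.

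Among the EphA receptors, Epha2, a receptor of epithelial junctions, had 13.3, 22.3 and 28.0 CPM in young mice 1, 2 and 3 and 10.9, 13.4, 7.92 and 18.8 CPM in aged mice 1, 2, 3 and 4. Young mouse 1 was within the range of the aged mice, and the log2 fold change was -0.73 (SE 0.33, 95% interval -1.48 to 0.01, adjusted p = 0.964 in edgeR). Epha2 is among the genes that the study itself picked on these cells, so its direction is not independent evidence. A read of Epha2 was found in 42.5%, 47.4% and 49.5% of thinned cells in young mice and in 26.5%, 36.3%, 27.3% and 42.5% in aged mice. In ISC-led cells these shares ran from 40.3% to 48.2% in young and from 24.7% to 40.1% in aged mice, and 1.52% of genes had every aged mouse below every young mouse by this measure. The 3 lanes with both ages gave -0.84, -0.75 and -0.89 on the log2 scale, and with lane as a block the change was -0.83 (SE 0.17, adjusted p = 0.515 in edgeR). That fit counts young mouse 2 once for each of 2 lanes, which overstates the replication.

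Epha4, a receptor that binds both ephrin classes, had 22.1, 46.4 and 29.3 CPM in young mice and 40.3, 31.0, 16.7 and 17.1 CPM in aged mice. This was a wide spread within each group, and the log2 fold change was -0.31 with an interval of -1.12 to 0.49. Epha1, an epithelial EphA receptor, was even across the mice, with 19.1 to 25.4 CPM in young and 20.9 to 26.1 CPM in aged mice.

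The ligands also overlapped between the ages. Efna1, the most abundant ligand and a partner of EphA2, had 203, 137 and 207 CPM in young mice and 139, 132, 182 and 164 CPM in aged mice, with a log2 fold change of -0.24 and an interval of -0.68 to 0.19. Efna4 had 42.1 to 48.2 CPM in young and 32.1 to 44.6 CPM in aged mice, a log2 fold change of -0.22 (interval -0.59 to 0.15). That value depended on the processing. It was -0.46 with thinned reads (interval -0.74 to -0.17), -0.54 with cells weighted equally and -0.11 in ISC-led cells, and passed in none. Efnb1 stood at 55.1 to 58.0 CPM in young mice and spread from 35.9 to 65.0 CPM in aged mice, and Efnb2 had 4.50 ± 1.18 CPM (SD, n = 3) in young and 4.77 ± 1.10 (SD, n = 4) in aged mice. The log2 fold change of Efnb2 was 0.08 over all kept cells (interval -0.62 to 0.79) and -0.23 in ISC-led cells alone (interval -1.21 to 0.76). Outside the 10 genes, Efna3 had 18.0, 16.1 and 20.4 CPM in young mice and 4.91, 9.58, 13.7 and 15.4 CPM in aged mice, a log2 fold change of -0.74 (SE 0.35, adjusted p = 0.969 in edgeR). Every aged mouse was below every young mouse, as in 3.1% of all genes tested, and Efna3 did not pass the test.

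**Figure D2:**
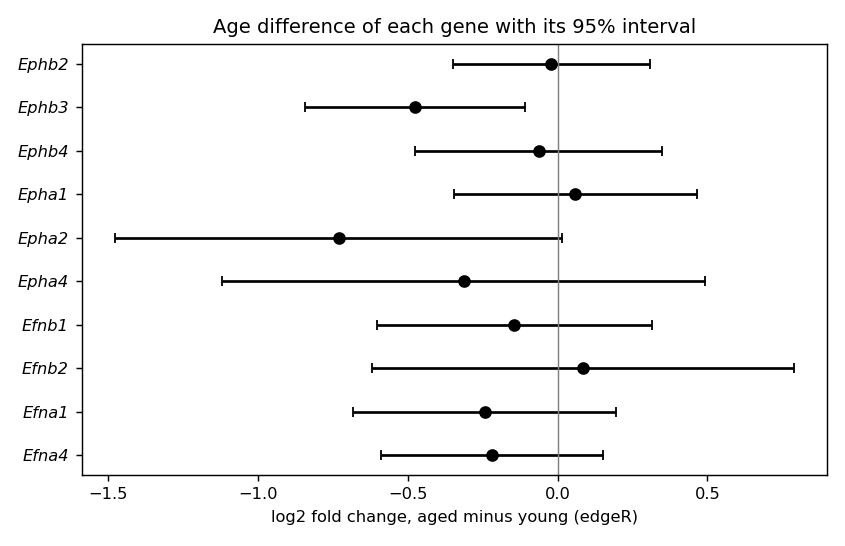
Log2 fold change of each of the 10 genes between aged and young mice (edgeR, 3 against 4 mice), with bars for the 95% interval. The interval of Ephb3 runs from -0.84 to -0.11 before adjustment over all genes, and those of the other 9 genes include 0.

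No gene around the receptors passed the test for age either. Of 29 genes of the pathway outside the families (adaptors, kinases, exchange factors and the ephrin protease Adam10), 22 had a log2 fold change below 0, and none passed, with a median of -0.05. The highest were Arap3 (1.83) and Rgs3 (0.33), and the lowest were Grip1 (-1.76), which encodes a scaffold for B-type ephrins, and Fyn (-1.19, adjusted p = 0.353 in edgeR), which encodes a Src family kinase. Of 14 Wnt targets, 11 were below 0 and none passed, with a median of -0.27. Lef1 (0.64) and Tcf7 (0.53) were the highest and Tnfrsf19 (-1.01) and Nkd1 (-0.60) the lowest.

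The sorted cells also held cells led by markers of other types, and 8 of the 10 genes differed between enterocyte-led and ISC-led cells and 4 between Paneth-led and ISC-led cells. Cells were put in a class by the list with the highest mean level, and no list held any of the 10 genes. Of the kept cells 59 were within 0.5 of the next list, so a class is a range of cells and not a proven type. No doublet caller was run, so a well with RNA of 2 cells cannot be told apart from a cell of mixed state. The median ISC marker mean was 8.26 in ISC-led, 6.43 in Paneth-led and 5.76 in enterocyte-led cells on the log2 scale, and Lgr5 was read in 92.8% of Paneth-led and 78.9% of enterocyte-led cells. Median reads per cell were 317873, 230811 and 178002 in this order. Classes were compared within the same mouse where it held at least 10 cells of both.

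In enterocyte-led cells the EphB receptors were lower, the ligand Efnb2 was much higher, and the EphA receptors were split. The comparison rests on 3 aged mice (2, 3 and 4) with 11, 12 and 37 enterocyte-led cells, and no young mouse had 10 such cells. Of the 10 genes 5 were lower, against 6.22% of 18723 genes, and 3 were higher, against 8.55% (edgeR with mouse as a block, Benjamini-Hochberg adjusted p under 0.05). The median log2 difference was -0.56 over the 10 genes and -0.18 over all genes.

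Ephb2 had 61.6, 74.8 and 67.0 CPM in ISC-led and 24.9, 36.7 and 29.3 CPM in enterocyte-led cells of aged mice 2, 3 and 4. It was lower in all 3 mice and the values did not overlap, a log2 difference of -1.18 (SE 0.24, adjusted p = 0.00662 in edgeR). Ephb3 had 40.9, 33.3 and 40.9 CPM against 12.8, 21.1 and 13.4 CPM, a log2 difference of -1.31 (SE 0.30, adjusted p = 0.0127 in edgeR). Ephb4 fell as well, from 68.4, 66.8 and 92.8 CPM to 20.9, 46.1 and 19.1 CPM, a difference of -1.50 (SE 0.33). All 3 EphB receptors were thus 2.26 to 2.83 times lower in enterocyte-led cells. In aged mouse 2 a single cell held 47.1%, 48.6% and 45.6% of the Ephb2, Ephb3 and Ephb4 reads of its enterocyte-led cells. Without aged mouse 4, which held most enterocyte-led cells, the differences of Ephb2, Ephb3 and Ephb4 were -1.13, -1.12 and -1.07 and none of them passed (adjusted p = 0.0612, 0.123 and 0.106 in edgeR), and without aged mouse 2 Ephb2 and Ephb3 did not pass (adjusted p = 0.0511 and 0.0775).

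Efnb2, the transmembrane ligand of EphB receptors, moved the other way and by more than any other gene of the 10. It had 2.36, 2.47 and 1.20 CPM in ISC-led and 35.9, 38.0 and 25.3 CPM in enterocyte-led cells, which is 17.0 times higher (log2 difference 4.09, SE 0.33, adjusted p = 8.46e-06 in edgeR). A read of Efnb2 was found in 80.0%, 70.0% and 58.6% of thinned enterocyte-led cells (10, 10 and 29 cells) and in 13.6%, 14.4% and 8.40% of ISC-led cells of the same mice. In aged mouse 3 a single cell held 50.4% of the Efnb2 reads of its enterocyte-led cells. Efnb1, the other B-type ligand, had 51.7, 38.3 and 56.3 CPM against 66.6, 39.0 and 120 CPM and did not pass (log2 difference 0.50, adjusted p = 0.238 in edgeR). Without aged mouse 3 it passed, at 0.73 (adjusted p = 0.00532 in edgeR). In that fit of aged mice 2 and 4 alone 5787 of 17701 genes passed, against 2765 of 18723 with aged mouse 3 kept.

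Epha1 and Epha2 were higher in enterocyte-led cells. Epha1 had 17.4, 16.8 and 22.1 CPM in ISC-led and 52.3, 62.7 and 63.6 CPM in enterocyte-led cells, 3.18 times higher (log2 difference 1.67, SE 0.24, adjusted p = 0.000789 in edgeR). Epha2 had 10.4, 6.45 and 16.5 CPM against 57.1, 21.8 and 47.2 CPM, 3.76 times higher. A single cell held 42.9% of the Epha2 reads of enterocyte-led cells in aged mouse 2 and 52.2% in aged mouse 3. Epha4 went the other way, with 29.0, 15.3 and 15.8 CPM against 11.7, 4.22 and 6.45 CPM, a log2 difference of -1.47 (SE 0.34, adjusted p = 0.0138 in edgeR). That call was lost without aged mouse 2 (adjusted p = 0.0667) or 4 (0.0677), and with mice of at least 5 cells the difference was -0.82 (0.101).

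The A-type ligands differed from each other. Efna4 had 33.7, 43.6 and 31.4 CPM in ISC-led and 8.41, 13.6 and 9.90 CPM in enterocyte-led cells, 3.42 times lower (log2 difference -1.77, SE 0.28, adjusted p = 0.00139 in edgeR). Efna1 had 119, 170 and 147 CPM against 171, 94.2 and 203 CPM, higher in 2 of 3 mice, and its difference of 0.05 had an interval of -0.62 to 0.73.

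**Figure D3:**
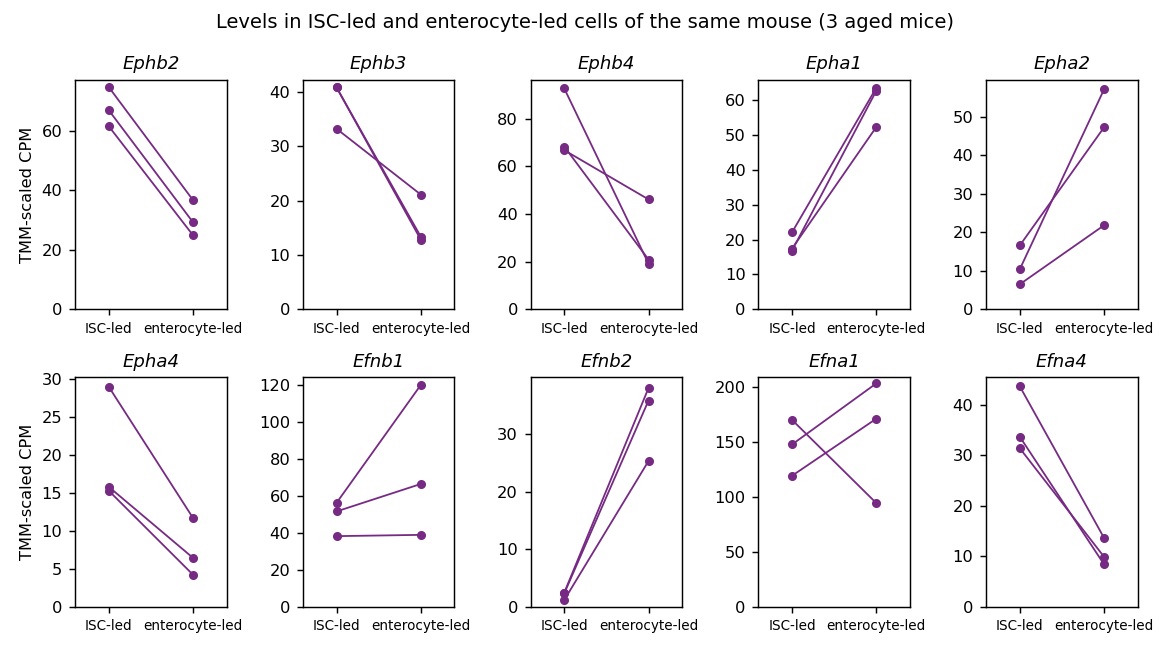
TMM-scaled CPM of each gene in ISC-led and enterocyte-led cells of the same mouse, with a line for each of 3 aged mice and an axis that starts at 0 in each panel. Lines fall for Ephb2, Ephb3, Ephb4, Epha4 and Efna4, and rise for Epha1, Epha2 and Efnb2.

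Among the Wnt targets, 6 of 14 are also ISC markers and were used to form the classes. Of the other 8, 7 were tested, all had a log2 difference below 0 and 5 were lower in enterocyte-led cells, against 6.22% of all genes. The lowest of the 14 were Nkd1 (-3.09, adjusted p = 0.0293 in edgeR) and Lef1 (-3.04), and the highest were Cd44 (-1.02) and Tcf7 (-1.30), which did not pass. Of 29 pathway genes 2 were higher and 2 lower (13.8% called). That is near the share of all genes called in both directions together (2765 of 18723, with 8.55% higher and 6.22% lower). Kalrn (3.28) and Vav2 (1.93) were higher and Tiam1 (-2.23) and Vav3 (-0.96) were lower. All 4 encode exchange factors that act downstream of Eph receptors, a kind of gene that the list holds by design. The list's median of -0.15 was near the -0.18 of all genes.

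In Paneth-led cells the pattern was another one, with Ephb3 higher and several other genes of the families lower. The comparison used 6 mice (young mice 1 and 2 and all 4 aged mice) with 11 to 37 Paneth-led cells each. Of the 10 genes 1 was higher, against 6.37% of 19644 genes, and 3 were lower, against 6.16% (edgeR with mouse as a block, Benjamini-Hochberg adjusted p under 0.05). The median log2 difference was -0.41 over the 10 genes and -0.15 over all genes. With RLE scaling the median over all genes was -0.04, and the 1251 higher and 1210 lower genes became 1463 higher and 674 lower, so differences here are relative to that shift.

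Ephb3 ran from 27.0 to 43.6 CPM in ISC-led cells of the 6 mice (median 33.1) and from 33.1 to 70.3 CPM in Paneth-led cells (median 58.0). It was higher in Paneth-led cells of all 6 mice, with the smallest gap in aged mouse 2, and the log2 difference was 0.72 (SE 0.18, adjusted p = 0.0167 in edgeR). Without aged mouse 4 it was 0.73 with an adjusted p of 0.0502. Ephb2 was below its ISC-led level in all 6 mice, with medians of 36.3 CPM against 53.5 CPM, but did not pass (log2 difference -0.42, SE 0.17, adjusted p = 0.114 in edgeR). Ephb4 had 42.0 to 75.8 CPM in ISC-led and 22.5 to 39.6 CPM in Paneth-led cells with no overlap, a log2 difference of -0.73 (SE 0.16, adjusted p = 0.00773 in edgeR), and without aged mouse 4 it was -0.66 (adjusted p = 0.0515).

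Efna1 was lower in Paneth-led cells of all 6 mice, at 52.9 to 94.2 CPM (median 73.6) against 95.7 to 146 CPM (median 110), a log2 difference of -0.67 (SE 0.16, adjusted p = 0.0117 in edgeR). With reads thinned to 100000 per cell, which left 4 mice, it did not pass (-0.53, adjusted p = 0.0626). Epha4 was lower in all 6 mice too, with medians of 11.4 and 19.2 CPM and a log2 difference of -0.83 (SE 0.24, adjusted p = 0.0353 in edgeR). That call was lost with RLE scaling (-0.72, adjusted p = 0.072), with thinned reads (-0.86, adjusted p = 0.0623), without mouse as a block (-0.83, adjusted p = 0.0864) and when any mouse but young mouse 1 was left out, with adjusted p from 0.0600 to 0.120. Efna4 had 25.6 to 35.5 CPM in ISC-led cells and 7.48 to 14.3 CPM in Paneth-led cells of 5 mice, but 66.1 CPM in young mouse 2, where a single cell held 175 of its 221 reads. Over all 6 mice it did not pass (log2 difference -0.98, adjusted p = 0.0784 in edgeR), and without young mouse 2 the difference was -1.43 (adjusted p = 0.00202).

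Epha1, Epha2, Efnb1 and Efnb2 did not pass in Paneth-led cells. Efnb2 was higher in 5 of 6 mice, with medians of 4.55 CPM in Paneth-led and 2.11 CPM in ISC-led cells, a log2 difference of 1.06 with an interval of -0.03 to 2.15. Outside the 10 genes Epha7 was lower (log2 difference -2.0, SE 0.53, adjusted p = 0.0217 in edgeR). Of the pathway genes Fyn was higher (1.86, adjusted p = 0.00234 in edgeR) and Ngef, which encodes an exchange factor that binds EphA receptors, was lower (-0.76), whereas Arap3 (2.10) and Itsn1 (-0.69) did not pass. These calls, 1 higher and 1 lower, were 6.90% of the 29 pathway genes. Over all genes 2461 of 19644 were called in both directions together, 6.37% higher and 6.16% lower. Of the Wnt targets, the feedback inhibitors Notum (4.93) and Nkd1 (1.15) were higher, and the lowest, Ascl2 (-1.09) and Tnfrsf19 (-1.0), are ISC markers that formed the classes.

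**Figure D4:**
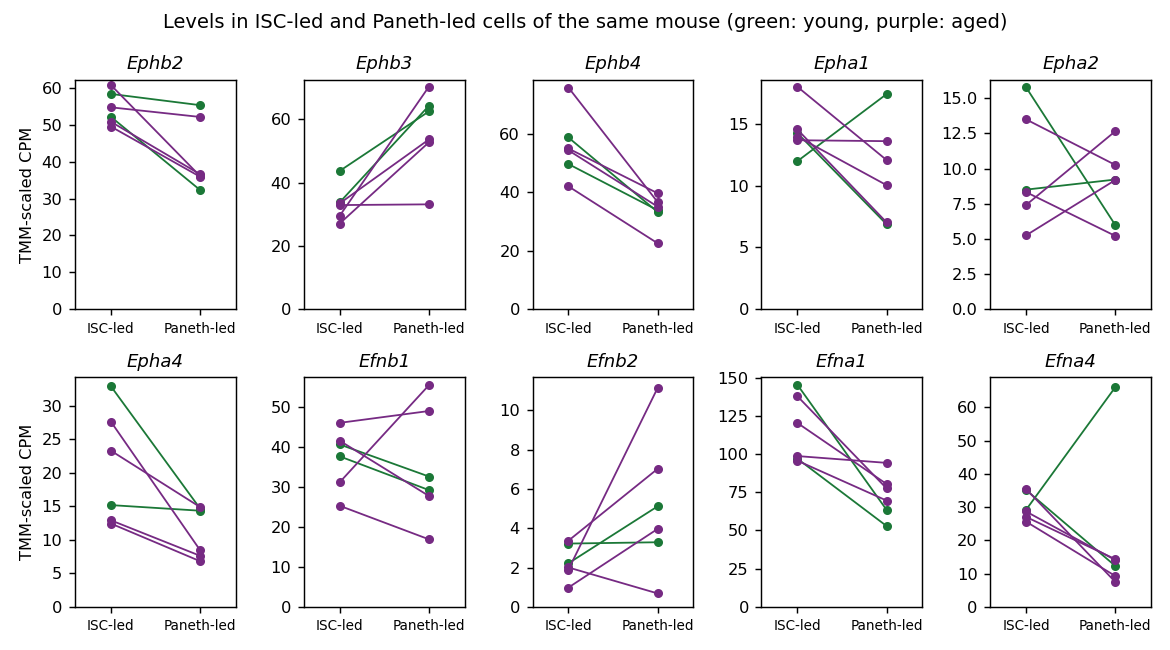
TMM-scaled CPM of each gene in ISC-led and Paneth-led cells of the same mouse, with lines for 2 young (green) and 4 aged (purple) mice and an axis that starts at 0 in each panel. Ephb3 was higher and Ephb4, Epha4 and Efna1 were lower in Paneth-led cells of all 6 mice, Ephb2 was lower in all 6 but did not pass the test, and Efna4 was higher in young mouse 2 alone.

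Whether the difference between Paneth-led and ISC-led cells depended on age was tested as an interaction, and 0 of 19644 genes passed in edgeR, with 642 at an unadjusted p under 0.05. For Ephb3 the interaction was -0.01 on the log2 scale, with a wide interval of -0.86 to 0.84 from 2 young and 4 aged mice. That of Efna4 was -1.37 (adjusted p = 1 in edgeR), and its young values include the 66.1 CPM of young mouse 2. No young mouse held 10 enterocyte-led cells, so their interaction with age was fitted only in mice with at least 5, 2 young and 3 aged, a choice made after seeing the data. Of 19444 genes 4 passed in edgeR (0.0206%), namely Fabp6, Dpep1, Mgat4c and Fstl4, and none of the 10 genes did, with the lowest adjusted p for Epha4 (interaction -1.77 on the log2 scale, interval -2.97 to -0.58, adjusted p = 0.743).

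Across single cells within a mouse the 10 genes were weakly related, and 8 of them had a mean correlation with Lgr5 above 0. Spearman correlations of log2(CPM + 1) were computed in each mouse and averaged over the 7 mice, as a description, since all genes of a cell share its depth and quality. The share of all genes above 0 is not given here, so counts of values above 0 are not read as a trait of the 10 genes. Of 45 pairs among the 10 genes 40 had a mean above 0, from -0.08 to 0.23 with a median of 0.10, and Ephb2 with Ephb3 had 0.14 (0.06 to 0.23 over the mice). Ephb3 had the highest mean correlation with Lgr5 (0.31, from 0.16 to 0.42), and in ISC-led cells alone it was 0.28. Ephb4 (0.27), Efna1 (0.25), Efna4 (0.25), Epha4 (0.22) and Ephb2 (0.21) were also above 0 in all 7 mice. For Ephb2 the value was 0.09 in ISC-led cells. Efnb2 was below 0 with Lgr5 in 6 of 7 mice (mean -0.12), and in ISC-led cells the mean was -0.03.

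Epha1, Epha2, Efnb2 and Efnb1 had the highest mean correlations with the mean level of the enterocyte markers, at 0.19, 0.21, 0.18 and 0.14. Those among Epha1, Epha2 and Efnb2 were 0.16 to 0.17, above 0 in all 7 mice. Efnb1 had 0.19 with Epha1, 0.19 with Epha2 and 0.10 with Efnb2, and it was also above 0 with Lgr5 in 6 of 7 mice (mean 0.13). Ephb3 was below 0 with the enterocyte markers in all 7 mice (mean -0.13). In ISC-led cells alone the values for Epha1 and Epha2 were 0.11 and 0.15, and that for Efnb2 was 0.05.

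**Figure D5:**
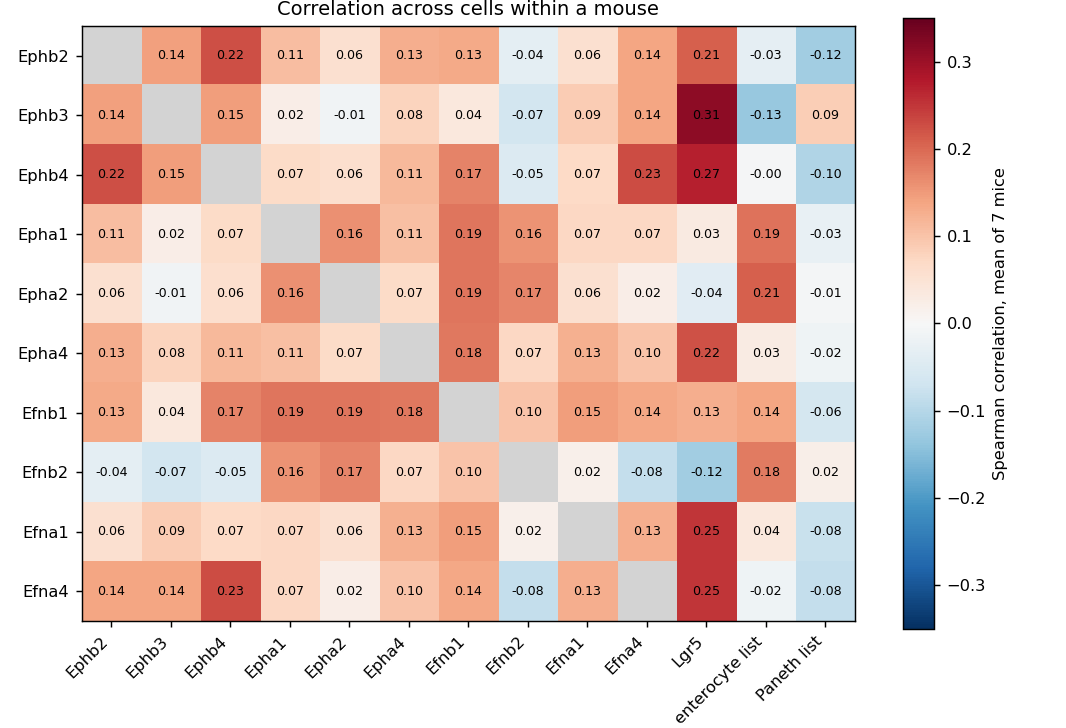
Spearman correlation across cells, averaged over 7 mice, between the 10 genes and with Lgr5 and the mean levels of the enterocyte and Paneth marker lists. The color scale runs from blue (negative) to red (positive), and Ephb3 with Lgr5 (0.31) is the highest value.

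Among 12551 genes with a read in at least 20% of cells, Lgr5 was the gene most like Ephb3, followed by Soat1 (0.30), Tns3 (0.30), the ISC marker Olfm4 (0.29) and Arhgef26 (0.29). The least alike were Cycs (-0.23), Txn1 (-0.22) and Dbi (-0.21). For Ephb2 the order was another, with Hmga1 (0.31), Nsun2 (0.30), Pabpc1 (0.30), the pseudogene Gm8979 (0.29) and Cluh (0.29) in front, and Cd44, a Wnt target, in place 6 of the ranking (0.28). Lgr5 was in place 426 for Ephb2. Lars2 (-0.22), Gm15564 (-0.20) and Gm23935 (-0.19) were the least like Ephb2.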

How the data were processed

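Lgr5high cells from 3 young and 4 aged mice were sorted singly, amplified by Smart-seq2 and read single-end, with 384 cells in a lane. The authors aligned the reads to GRCm38 with HISAT2 and deposited the counts of reads on each gene in each cell, with no normalization. The submitters' processing notes also name HTSeq, without a version, and its annotation and strand setting were not given in the sources used here. Of 55471 gene identifiers, 55144 were matched to GENCODE release M21, and the other 327 held 0.0307% of all counts. Each column was put with its mouse through the code in the cell's title, and the last part of that code, shared by 384 cells, was taken as the lane. The labels do not call it a lane, and cells were sorted into 384-well plates, so plate and lane cannot be told apart.

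Counts of kept cells (at least 1000 detected genes) were summed per mouse or per mouse and class. Classes are the cells in which a marker list had the highest mean log2(CPM + 1). The test was edgeR's quasi-likelihood F test (edgeR 4.0.16, R 4.3.3) after filterByExpr and TMM scaling, with p-values adjusted by Benjamini-Hochberg over all genes tested and a threshold of 0.05. For classes the mouse was a block. DESeq2 1.42.0, limma 3.58.1 (voom), RLE scaling, no filter, other cell filters, thinned reads, lane or replicate number as a block and each mouse left out were the alternatives. Correlations and shares were computed in Python 3.11.15 with numpy 2.4.6 and scipy 1.17.1. Steps were tested on simulated data. The 10 genes, the gene lists and the tests were chosen with earlier results of these data known.

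The genes named are the 10 genes, the other 12 of the families, the 2 highest and 2 lowest of the 29 pathway genes and of the 14 Wnt targets in each comparison, and the 5 genes most like and 3 least like Ephb2 and Ephb3. Cd44 in the ranking of Ephb2 was named after its value was seen. No doublet caller was run, and the reads carry no molecular identifiers.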

Additional observations from a re-analysis of the deposited data

Results flagged for a closer look

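In 1 of 30 sets of values per mouse a mouse was far from the others by Dixon's criterion, which chance meets in about 1 set in 20. It was Efna4 in Paneth-led cells, at 66.1 CPM in young mouse 2 against 7.48 to 14.3 CPM in the other 5 mice. A single cell held 175 of the 221 Efna4 reads of that sum, and 11 of its 19 cells had a read.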

How the results depend on the processing

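For age, none of the 10 genes passed under any of the 18 alternatives, while the count of all genes past the threshold was 177 with DESeq2, 2 with limma voom, 22 with no filter on low counts, 15 with thinned reads, 9 with cells weighted equally, 1 with lane as a block, and 0 to 8 with a mouse left out. With the replicate number as a block it was 2. That number did not pair the mice (correlations of deviations of same-numbered mice of -0.016, 0.107 and -0.110). Directions reversed for 5 of the 10 genes, and the cause was not tested. In ISC-led cells Ephb2 was 0.022, Ephb4 0.0071 and Efnb2 -0.23. Efnb2 was -0.039 with thinned reads. Epha1 was -0.073 with cells weighted equally and -0.012 with the replicate block. With a mouse left out, Ephb2 ran from -0.086 to 0.061, Ephb4 from -0.21 to 0.034, Epha1 from -0.022 to 0.19, Epha4 from -0.60 to 0.031 and Efnb2 from -0.099 to 0.28.

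In Paneth-led cells 1459 to 2178 genes and 1 to 4 of the 10 genes passed with a mouse left out, and 2 of the 10, Ephb3 and Ephb4, with thinned reads, which left 4 mice. Without the replicate block, here the mouse, 2127 genes and 3 of the 10 passed, and Efnb1 was 0.013. Epha2 ran from -0.37 to 0.097 with a mouse left out. In enterocyte-led cells 4599 genes passed with mice of at least 5 cells, and 1127 to 5787 genes and 4 to 9 of the 10 with a mouse left out. Without the block 1872 genes and 7 of the 10 passed. Efna1 was -0.00067 with no filter, -0.22 with mice of at least 5 cells, and ran from -0.19 to 0.49 with a mouse left out. Of 508 alternative values in all, 442 kept their direction and their side of the threshold or, where there was no test, moved by less than the spread between mice. Cells at least 0.5 above the next list could not be compared for enterocyte-led cells, since 1 mouse held enough. Precision is limited by 11, 12 and 37 enterocyte-led cells in the 3 mice and by 7 mice in all.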

Other observations

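Goblet-led cells reached 10 in aged mouse 4 alone, so they were compared only with mice of at least 5 cells, 1 young and 3 aged. Of 19194 genes 433 passed, among them 1 of the 10 genes. Efna4 was lower in goblet-led than in ISC-led cells (log2 difference -3.05, SE 0.62, adjusted p = 0.0173 in edgeR). Efnb2 had a log2 difference of 2.01 (SE 0.72, adjusted p = 0.218) and Ephb3 one of -0.27.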
